A study of Mus musculus with 8 samples.

Results

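Autosomal RNA was compared between round spermatids (RS), the haploid cells that follow meiosis, and pachytene spermatocytes (PS), the cells in meiotic prophase, of *Rnf8;Scml2* double-knockout (dKO) mice. Genes on chromosomes 1 to 19 were chosen, read estimates of isoforms with the same gene name and chromosome were summed, and a gene was tested when it had 10 or more reads in 2 or more libraries. Of 22300 autosomal genes listed, 14169 were tested, out of 14649 tested on all chromosomes. The other 8131 autosomal genes stayed below that minimum, and 3881 of them had 0 reads in all 4 libraries.

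The 2 PS libraries and the 2 RS libraries all came from testes of adult C57BL/6 males with the genotype Rnf8- and Scml2-dKO. Both stages thus lacked RNF8, a ubiquitin ligase of the DNA damage response, and SCML2, a germline Polycomb protein, and these mice are infertile without a meiotic arrest. The other 4 libraries of the series profile acetylation of histone H3 at lysine 27 (H3K27ac) by chromatin immunoprecipitation in PS and RS of wild type C57BL/6 adults, with 2 replicates a stage, and no wild type RNA was analysed here. Cells were separated by sedimentation through albumin, a step that one testis pair can supply for both stages. The methods call the replicates biological but the sources do not say which libraries share a mouse, so the p-values measure the spread between these libraries.

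Between these stages a male germ cell completes both meiotic divisions and begins to build a sperm. Spermatocytes carry the machinery of chromosome pairing, recombination and PIWI-interacting RNA (piRNA) production. Spermatids turn on genes for the acrosome, the tail and the sperm nucleus, where transition proteins and then protamines replace histones. The transcription factor CREM, which binds cAMP response elements (CRE) near start sites, is a known activator of many of these haploid genes.

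Depth ranged from 9655405 to 12289694 reads assigned to genes per library, of which 99.1% to 99.8% were autosomal. On log2 read counts scaled to library size (CPM) over all genes tested, Pearson's r was 0.981 between PS replicates, 0.989 between RS replicates and 0.824 to 0.860 between stages. Of 14 RS markers, 13 were higher in RS and none was lower. Their summed level in PS replicates 1 and 2 was 5.78% and 8.84% of the RS mean, so the RS program was not at 0 in the PS libraries, and it was 1.53 times as high in PS replicate 2 as in PS replicate 1. Of 14 PS markers, 7 were lower in RS, 1 was higher, and their summed level in RS replicates 1 and 2 was 46.5% and 50.5% of the PS mean. The deleted genes still had reads: *Rnf8* (chromosome 17) had 93 and 110 reads in PS and 61 and 50 in RS (2.04-fold lower, a call lost without either RS library), and X-linked *Scml2* had 40 and 92 reads in PS and 44 and 98 in RS. These values say nothing on their own about the knockouts, since the deleted exons cannot be separated in gene totals.

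Of the markers of other testis cells, the Leydig list fell and the peritubular, vascular and blood list rose in RS. The summed CPM of the Sertoli list overlapped between the stages, at 212.4 and 108.1 in PS and 171.1 and 124.6 in RS. That of the spermatogonial list was 178.9 and 124.4 in PS and 187.9 and 179.8 in RS, without overlap. Scaled to transcript length, as given below, the sums of both lists overlapped. Over all autosomal genes tested 29.3% were higher and 28.5% lower in RS. All 9 Leydig cell genes, which serve steroid hormone production, fell in RS, and their summed RPKM (reads scaled to transcript length and library depth) was 801 and 576 in PS and 73.6 and 46.2 in RS. The steroid enzyme *Cyp17a1* had 75.3 and 52.96 RPKM in PS and 4.27 and 2.997 in RS. Most of the list's sum was *Insl3*, a Leydig cell hormone, at 593 and 450 RPKM in PS and 60.01 and 35.8 in RS. Of 16 tested peritubular, vascular and blood markers, 9 were higher in RS and 1, the endothelial gene *Pecam1*, was lower, and the summed RPKM of that list went from 13.3 and 11.9 to 65.2 and 57.6. Without either RS library 3 of these markers were higher, and the *Pecam1* call was lost without PS replicate 1 or either RS library. Its rises were led by macrophage genes, such as the lysozyme gene *Lyz2* with 24 and 12 reads in PS and 446 and 320 in RS, and the leukocyte gene *Ptprc* with 1 and 0 reads in PS and 52 and 16 in RS, while 4 hemoglobin genes had 0 reads in all libraries. Of 10 tested Sertoli cell markers 4 were higher and 0 lower in RS (1 higher and 1 lower without PS replicate 2 or without RS replicate 1), with summed RPKM of 102 and 49.8 in PS and 79.5 and 58.1 in RS. In that list *Clu*, which codes for clusterin, had 57.95 and 27.04 RPKM in PS and 28.2 and 14.5 in RS (not called with all 4 libraries, and called lower without PS replicate 2 or RS replicate 1). *Ctsl*, a cathepsin, was not called with all 4 libraries and was higher without PS replicate 1, and *Aard* rose 4.06-fold. The Sertoli genes *Sox9* and *Amh* had at most 9 reads in any library. Of 17 tested spermatogonial and early meiotic markers 8 were higher (13 without PS replicate 1) and 1 lower, with summed RPKM of 78.0 and 54.5 in PS and 70.1 and 67.02 in RS. The rises included *Ret*, a growth factor receptor of spermatogonia, at 0.28 and 0.193 RPKM in PS and 1.04 and 1.54 in RS, *Uchl1* was not called with all 4 libraries and was higher without PS replicate 1, and *Id4*, a spermatogonial repressor, fell 8.59-fold from 26.05 and 20.4 RPKM. The part that such cells have in the gene results was not tested, and in bulk RNA fewer cells of a type and less RNA per cell cannot be told apart.

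**Figure D1:**
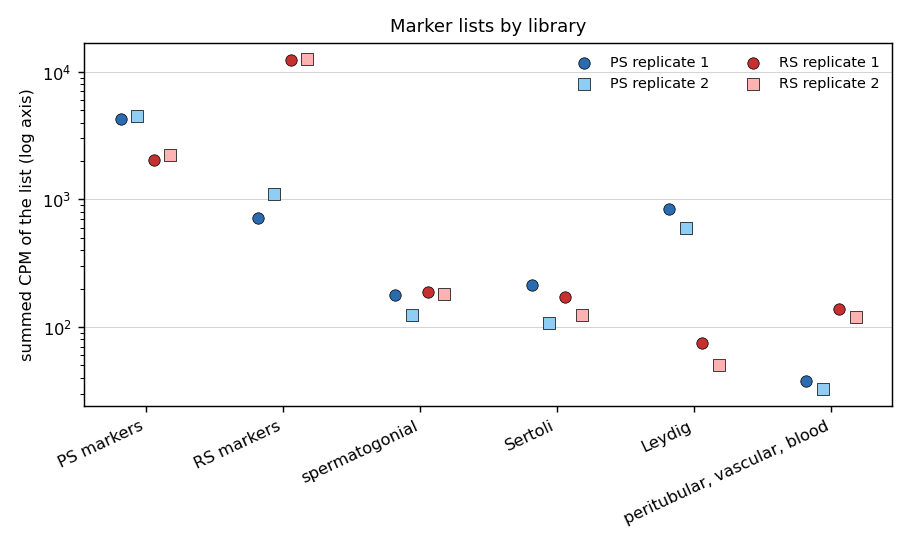
Summed CPM of 6 marker lists in each library (log axis), with PS in blue and RS in red. The RS libraries hold 12371 and 12536 CPM of RS markers against 720 and 1101 CPM in PS, Leydig markers are higher in both PS libraries, and peritubular, vascular and blood markers are higher in both RS libraries.

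The autosomal transcriptome was rebuilt between the stages. A gene was called when its adjusted p-value (edgeR quasi-likelihood test, Benjamini-Hochberg over all genes) was below 0.05 and it differed at least 1.5-fold. In RS 4147 autosomal genes were higher (29.3%) and 4041 were lower (28.5%), together 57.8% of those tested, against 58% over all chromosomes. The counts were close to even, but the sizes were not: 2128 genes rose and 608 fell at least 4-fold, 958 rose and 140 fell at least 8-fold, and 191 rose and 27 fell at least 16-fold. The 191 largest rises were mostly of rare RNAs, with a median of 0.149 CPM in PS and 3.77 CPM in RS. The median log2 fold change was 2.04 among the risers and -1.20 among the fallers.

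Risers started low and fallers started high. The median riser was at 4.55 CPM in PS and 16.7 CPM in RS, and the median faller was at 40.7 CPM in PS and 16.3 CPM in RS. Risers took 9.98% and 10.9% of autosomal reads in PS and 37.4% and 35.3% in RS, whereas fallers took 40.2% and 38.3% in PS and 16.1% and 17.2% in RS. At least 46.5% of autosomal reads in each library lay on tested genes that were not called. RPKM and CPM are shares of a library, so a difference is relative to all other RNA of that stage. Among the 52 genes at least 16-fold higher with 20 or more reads over both PS libraries, the median ratio of PS replicate 2 to PS replicate 1 was 1.502 and 45 were higher in replicate 2, against a median ratio of 1.00 over all genes.

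**Figure D2:**
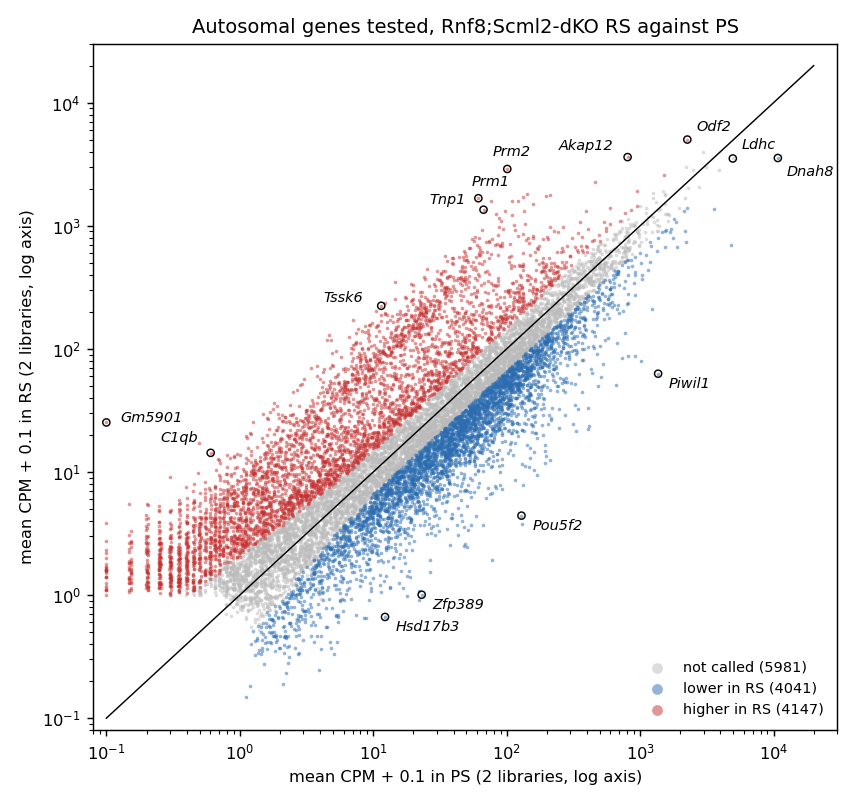
Mean CPM (plus 0.1, log axes) of each tested autosomal gene in PS and RS, 2 libraries each, with genes higher in RS in red, lower in blue and not called in grey. Risers reach farther from the diagonal than fallers, and *Prm1* lies among the farthest, at 46.3 and 76.2 CPM in PS and 1671 and 1679 CPM in RS.

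By RPKM, which allows genes of unequal length to be compared, the 4 most abundant autosomal RNAs of RS were those for the proteins that compact the sperm nucleus. Protamine 2 (*Prm2*, chr16:10791381-10792097) had 102 and 189 RPKM in PS and 3747 and 4408 RPKM in RS. Protamine 1 (*Prm1*) had 104 and 166 RPKM in PS and 3576 and 3640 in RS. The transition proteins followed, *Tnp1* with 108 and 170 RPKM in PS and 2596 and 2876 in RS, and *Tnp2* with 82.2 and 163 in PS and 2588 and 2392 in RS. No PS value came near an RS value for these 4 genes, and the PS values were higher in replicate 2 each time. The fold changes were 28.7 for *Prm2* (edgeR adjusted p = 5.226e-06), 27.4 for *Prm1*, 20.2 for *Tnp1* and 20.8 for *Tnp2*.

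The rest of the RS list mixed tail genes with RNAs that PS already held at a high level. *Odf2*, a main protein of the outer dense fibers, had 773 and 895 RPKM in PS and 1831 and 1827 in RS (2.22-fold, edgeR adjusted p = 7.669e-05). *Smcp*, a protein of the sperm mitochondrial sheath, had 70.4 and 121 RPKM in PS and 1238 and 1334 in RS (13.8-fold), and *Tcp11*, a testis gene of the t-complex, rose 1.72-fold to 1200 and 1240 RPKM. *Ldhc*, the germ cell lactate dehydrogenase, was the highest autosomal RNA in PS at 3357 and 3343 RPKM and followed the 4 nuclear genes in RS at 2358 and 2276, a 1.41-fold difference below the threshold of size. *Phf7*, a histone reader of the male germ line, and *Gstm5*, a glutathione transferase, were in the top 10 of both stages and were not called. *Ldhc*, *Phf7* and *Gstm5* were the only 3 genes shared by the 10 highest of PS and of RS, and 57 of the 100 highest were shared.

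The PS list held genes of translation and of microtubules. *Pabpc1*, the poly(A)-binding protein, had 1237 and 1231 RPKM in PS and 864 and 875 in RS, and *Ybx2*, a germ cell protein that stores mRNA, had 1086 and 1376 in PS and 902 and 948 in RS (neither called). *Rsph1*, a radial spoke protein of the axoneme, fell from 1374 and 1490 RPKM to 495 and 507 (2.78-fold). The testis tubulins *Tuba3a* and *Tuba3b* fell 2.37-fold and 3.01-fold, with the caution that reads matching both of these near-identical copies were left out by unique alignment. *Fabp9*, a fatty acid binding protein, was not called, and *Gm3925* fell 1.63-fold (not called without RS replicate 2).

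By reads, which favour long RNAs, the leaders were others. *Dnah8*, an axonemal dynein heavy chain, had 127425 and 88472 reads in PS and 43621 and 35408 in RS, a fall of 3.03-fold. *Slc2a3*, the glucose transporter GLUT3, had 49716 and 45295 reads in PS and 7573 and 7906 in RS, a fall of 6.77-fold. *Akap12*, a scaffold for protein kinase A, rose 4.49-fold from 6292 and 9662 reads to 39329 and 40322. The flippase gene *Atp8b3*, *Fhl4*, the chaperonin *Tcp1*, the elongation factor *Eef2* and the ubiquitin ligase *Trip12* were also in these lists, with differences of at most 1.37-fold, none of them called. Of the 100 highest autosomal RNAs in RS by RPKM, 45 were higher in RS and 8 were lower. Of the 100 highest in PS, 5 were higher and 25 were lower. Over all autosomal genes tested 29.3% were higher and 28.5% lower. Ranking by level in a stage favours genes that are higher in that stage.

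**Figure D3:**
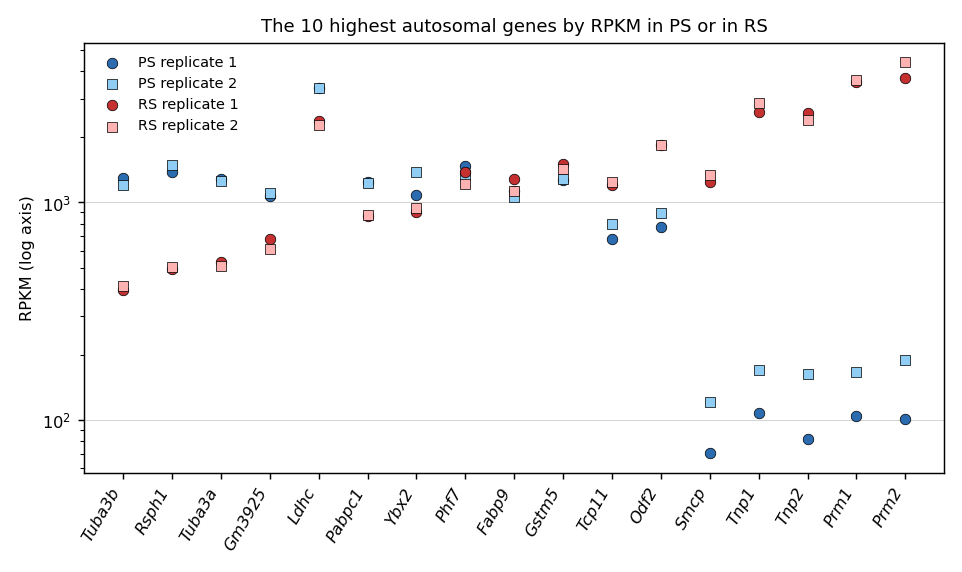
RPKM (log axis) in each library of the 17 genes among the 10 highest autosomal genes in PS or in RS, ordered by the ratio of RS to PS. *Prm1*, *Prm2*, *Tnp1*, *Tnp2* and *Smcp* stand at 189 RPKM or less in both PS libraries and at 1238 RPKM or more in both RS libraries.

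The letters before the start sites were read from mm10 for all 22300 listed autosomal genes, at the start of the isoform with the most reads. The 8 letters TGANNTCA, called CRE-like here, contain the full CRE (TGACGTCA) and read the same on both strands. They were picked after the promoters of the top spermatid genes had been seen. Within 100 bases of the start they occurred in 5.51% of all listed autosomal genes, 5.78% of those tested, 3.71% of fallers, 4.33% of uncalled genes and 9.89% of risers. Among risers the share went with the size of the rise: 4.41% at 1.5-fold to 2-fold, 5.15% at 2-fold to 4-fold, 11.1% at 4-fold to 8-fold and 18.9% at 8-fold or more. It was 30.5% (83 of 272) in genes at least 8-fold higher with 100 CPM or more in RS, against 4.36% (19 of 436) of genes at least 4-fold lower with 10 CPM or more in PS.

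The full CRE was present in 2.09% of all tested genes, 3.38% of risers at 1.5-fold to 2-fold, 2.09% at 2-fold to 4-fold, 1.54% at 4-fold to 8-fold and 2.09% at 8-fold or more. It stood before 4.41% (12 of 272) of the genes at least 8-fold higher with 100 CPM or more in RS. The commonest form among the 555 genes at least 8-fold higher with 10 CPM or more in RS was TGACATCA (or TGATGTCA), in 62 genes (11.2%, against 1.65% of all tested), then TGACCTCA, in 41 (7.39%, against 0.932%). With the outer half-sites exchanged (TCANNTGA, the same letters in another order) the shares were 1.88% in genes at least 8-fold higher and 2.36% in all tested. Other letters searched were also more frequent in genes at least 8-fold higher than in all tested. These were CAGTTG (6.05% against 3.44%), GTTGCCAT (1.46% against 0.685%) and TATAAA (3.76% against 2.58%). Upstream sequence of the strong risers held less G and C (a median of 51.2% over 250 bases) than that of all tested genes (59.6%).

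**Figure D4:**
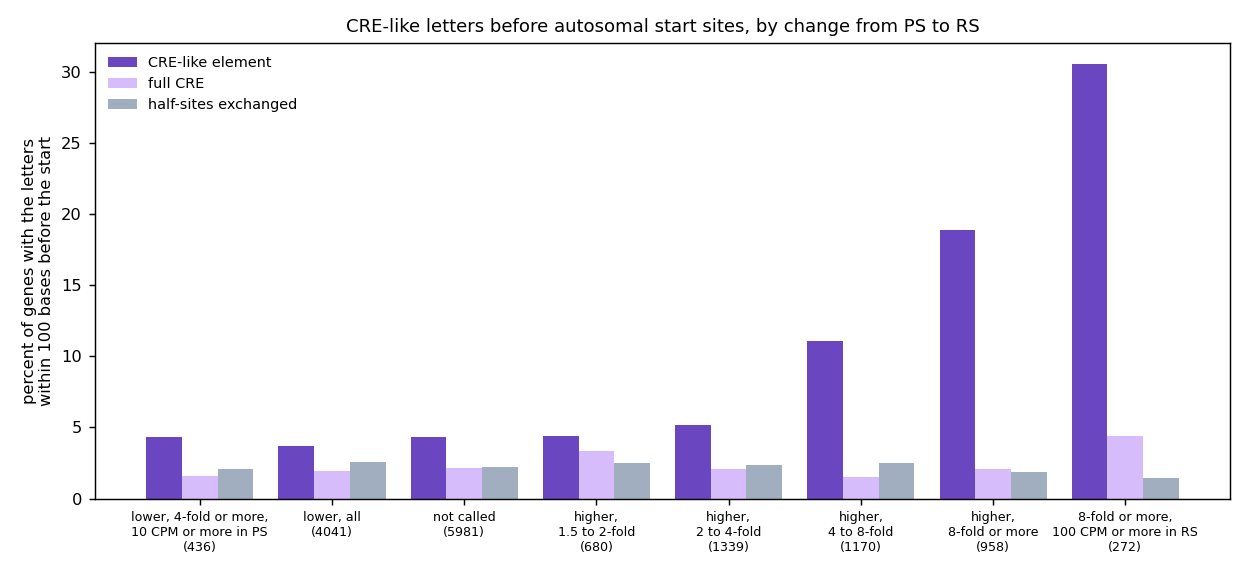
Percent of autosomal genes with the CRE-like letters, the full CRE or the half-sites in exchanged order within 100 bases before the start, by class of change from PS to RS, with the number of genes in parentheses. The CRE-like share is 3.71% to 5.15% from fallers to rises under 4-fold and reaches 18.9% at 8-fold or more and 30.5% in the subset with 100 CPM or more in RS, while the other bars stay under 5%.

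The 150 bases before the start of 7 such risers and of *Piwil1*, a large faller without the letters in this window, are shown 5′ to 3′ on the gene's strand, with the CRE-like letters in capitals. They are *Prm1* (chr16:10796824-10796973, minus strand), *Tnp1* (chr1:73015900-73016049, minus), *Tssk1* (chr16:17894053-17894202, plus), *Tssk2* (chr16:17898487-17898636, plus), *Oaz3* (chr3:94436617-94436766, minus), *Smcp* (chr3:92589025-92589174, minus), *Ubqlnl* (chr7:104150557-104150706, minus) and *Piwil1* (chr5:128736096-128736245, plus).
Prm1: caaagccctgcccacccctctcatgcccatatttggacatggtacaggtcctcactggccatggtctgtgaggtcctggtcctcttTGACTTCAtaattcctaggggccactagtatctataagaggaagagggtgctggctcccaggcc
Tnp1: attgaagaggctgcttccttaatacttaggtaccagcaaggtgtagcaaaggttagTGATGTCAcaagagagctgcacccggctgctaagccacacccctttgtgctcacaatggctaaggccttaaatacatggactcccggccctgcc
Tssk1: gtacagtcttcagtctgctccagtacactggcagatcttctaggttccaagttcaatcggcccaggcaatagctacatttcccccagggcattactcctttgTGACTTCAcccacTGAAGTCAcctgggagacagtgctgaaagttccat
Tssk2: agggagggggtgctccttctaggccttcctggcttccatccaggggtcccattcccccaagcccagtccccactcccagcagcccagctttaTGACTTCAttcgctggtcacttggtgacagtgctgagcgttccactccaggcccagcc
Oaz3: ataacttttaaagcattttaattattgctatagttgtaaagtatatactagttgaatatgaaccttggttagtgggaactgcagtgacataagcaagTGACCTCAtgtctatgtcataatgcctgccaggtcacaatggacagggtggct
Smcp: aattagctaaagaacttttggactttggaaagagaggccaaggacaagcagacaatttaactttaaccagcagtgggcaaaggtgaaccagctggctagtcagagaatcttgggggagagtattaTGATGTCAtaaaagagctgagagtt
Ubqlnl: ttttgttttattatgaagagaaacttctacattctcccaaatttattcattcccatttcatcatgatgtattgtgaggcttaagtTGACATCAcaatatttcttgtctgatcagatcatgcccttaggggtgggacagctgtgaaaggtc
Piwil1: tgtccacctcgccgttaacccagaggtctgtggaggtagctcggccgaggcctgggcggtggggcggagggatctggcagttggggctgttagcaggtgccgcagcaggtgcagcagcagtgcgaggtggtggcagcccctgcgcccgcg
In *Prm1* the letters TGACTTCA began 64 bases before the start, in *Tnp1* TGATGTCA 94 bases before it, and in *Tssk2* TGACTTCA 58 bases before it. *Tssk1*, the neighbour of *Tssk2*, had them at 48 and, in the other direction as TGAAGTCA, at 35. *Oaz3*, a testis antizyme gene that rose 13.0-fold, had TGACCTCA at 53, *Smcp* TGATGTCA at 25 and *Ubqlnl* TGACATCA at 65. *Prm2* and *Tnp2* rose as much as *Prm1* and *Tnp1* and had none in these 150 bases, so the letters were not shared by all strong risers.

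Among genes with at least 10 CPM in the higher stage, 2462 were called higher and 3367 lower. The 10 largest rises included the 2 protamines and *Ubqlnl*, a testis ubiquilin-like gene with 120 and 167 reads in PS and 4234 and 3497 in RS (24.1-fold). *Car2*, carbonic anhydrase 2, had 39 and 48 reads in PS and 1356 and 1258 in RS (26.98-fold). 3 uncharacterised testis transcripts rose by like amounts, *1700080E11Rik* 28.0-fold, *1700042G07Rik* 25.1-fold and *1700027A15Rik* 24.6-fold. The other 3, *Gm5901*, *Adamts5* and *C1qb*, belong to the genes near 0 in PS described further on.

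The 10 largest falls were led by the little-described *Gm21269*, with 734 and 804 reads in PS and 17 and 23 in RS (42.4-fold lower), and *4921525O09Rik*, with 1335 and 1250 reads in PS and 37 and 44 in RS (35.2-fold lower). *Pou5f2*, a POU-domain transcription factor of male germ cells, went from 1173 and 1391 reads to 39 and 55 (30.1-fold lower). *Piwil1* (MIWI), the PIWI protein of pachytene piRNAs, was by far the most abundant gene of this group and went from 286 and 326 RPKM to 9.91 and 17.6 (21.8-fold lower, edgeR adjusted p = 4.596e-06). *Fam13c*, *Zfp389*, *Hepacam2*, *4930525D18Rik* and *Fam174b* fell 19.8-fold to 27.8-fold. The remaining one, *Hsd17b3*, which makes testosterone in Leydig cells, had 166 and 79 reads in PS and 10 and 3 in RS and is a member of the Leydig marker list.

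Lists of genes by function were then counted, each against 29.3% higher, 28.5% lower and a median log2 fold change of -0.04 over all autosomal genes tested. Of 12 tested genes for protamines, transition proteins and spermatid chromatin, 9 rose and 1 fell, with a median log2 fold change of 3.88. Their summed RPKM was 635 and 960 in PS and 14118 and 14811 in RS. Besides the 4 genes above, the spermatid linker histones *Hils1* (3.20 on the log2 scale) and *H1fnt* (3.82) rose, as did *Prm3* (3.95) and the chromatin remodeler *Chd5* (3.07). *Hist1h2ba*, the testis histone TH2B, fell from 3.20 and 3.52 RPKM to 0.931 and 0.442 (a call lost with DESeq2 and without either RS library), and the bromodomain gene *Brdt* was not called. All 6 testis-specific serine kinases, which act in spermatid remodelling, rose, with a median of 3.12. *Tssk2* had 24.6 and 38.1 RPKM in PS and 369 and 291 in RS, *Tssk1* had 33.3 and 41.1 in PS and 269 and 213 in RS, and *Tssk6* rose most, 19.7-fold.

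Of 17 outer dense fiber and fibrous sheath genes, the stiff parts of the sperm tail, 15 rose and 0 fell (median 2.99). *Odf1*, the core fiber protein, had 59.4 and 81.1 RPKM in PS and 884 and 915 in RS, and *Odf3b* had the largest rise (17.5-fold) from 0.759 and 1.82 RPKM. *Ropn1l*, a fibrous sheath partner of protein kinase A anchors, stood at 1012 and 1036 RPKM in PS and 1065 and 902 in RS and was not called. Of 35 acrosome and sperm-egg fusion genes, 19 rose and 3 fell (median 2.63). The list split in 2 kinds: genes such as *Izumo1*, the sperm fusion protein (2.98 on the log2 scale), *Spaca1* (3.07), *Spam1* (2.99) and the hyaluronidase *Hyal5* (3.30, from 3.48 and 3.87 RPKM to 38.1 and 32.2) rose, while others were already high in PS. *Crisp2* had 813 and 702 RPKM in PS and 941 and 1045 in RS, *Adam3* had 348 and 462 in PS and 600 and 573 in RS, and neither was called (*Adam3* was called higher without PS replicate 2 or either RS library, and *Crisp2* without RS replicate 1). *Gopc*, a Golgi protein of acrosome formation, fell 6.13-fold.

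Of 25 sperm energy genes 14 rose and 6 fell (median 1.27). Among glycolytic members, *Gapdhs*, the sperm form of glyceraldehyde phosphate dehydrogenase, went from 56.4 and 90.6 RPKM to 1029 and 1044, *Pgk2* rose 3.97-fold and hexokinase *Hk1* 4.95-fold, whereas *Tpi1*, *Pgam2*, *Eno4* and *Ldhc* were not called. *Oxct2b*, an enzyme of ketone body use, rose most, 19.6-fold. The testis forms of respiratory chain parts went down, *Cyct*, testis cytochrome c, from 138 and 109 RPKM to 42.6 and 39.6, and *Cox8c* from 1032 and 929 to 392 and 384. Of 15 genes of the CREM pathway and spermatid transcription 9 rose and 1 fell (median 0.80). *Crem* itself rose 1.60-fold, from 62.0 and 64.3 RPKM to 104 and 91.8, its partner *Fhl5* (ACT) rose 8.96-fold, *Hmgb4* rose 12.7-fold to 560 and 464 RPKM, and the spermatid poly(A) polymerase *Papolb* rose 1.74-fold. *Tcfl5*, a transcription factor of spermatocytes, fell 1.86-fold.

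**Figure D5:**
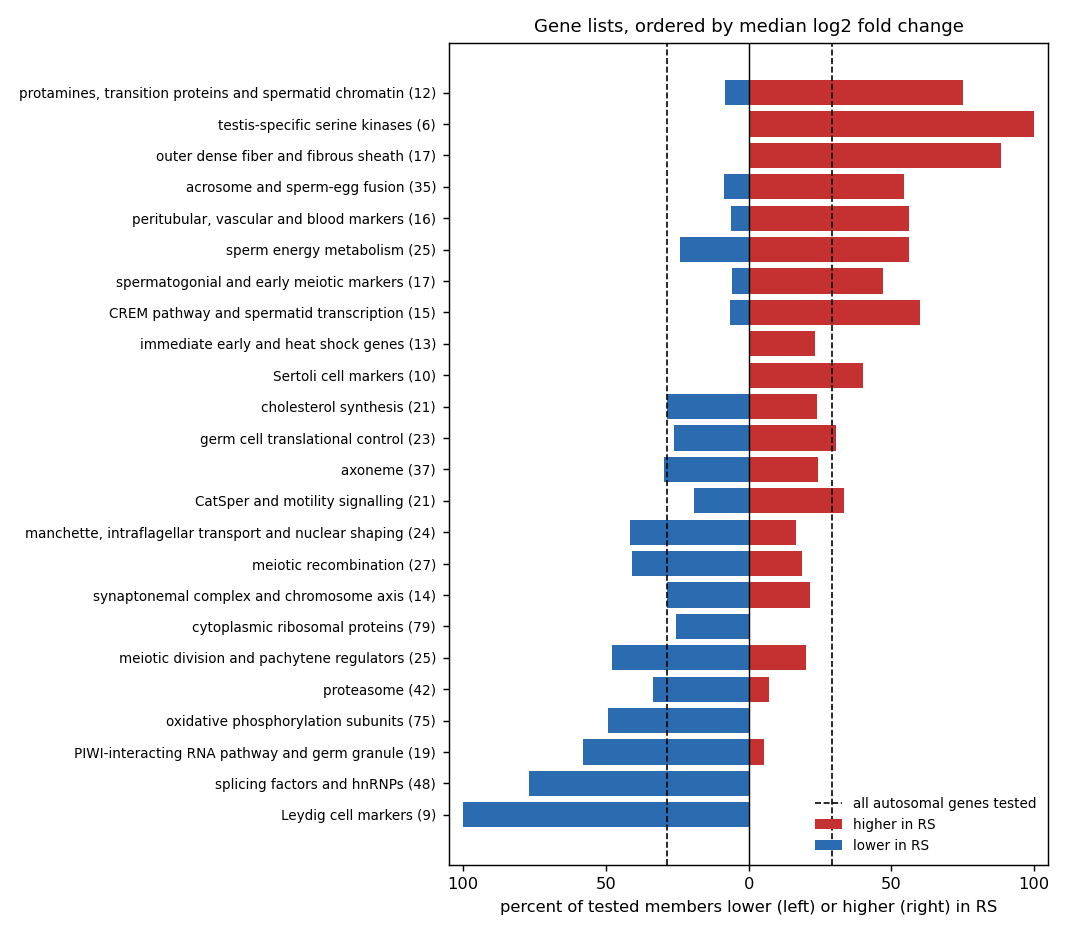
Percent of tested members of each gene list that were higher in RS (red, right) or lower (blue, left), ordered by median log2 fold change, with the number tested in parentheses and dashed lines at 29.3% and 28.5% for all autosomal genes tested. Serine kinases, outer dense fiber and spermatid chromatin genes lie at the top, and splicing factors, piRNA genes and Leydig markers at the bottom.

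Axoneme genes did not share that direction. Of 37 tested, 9 rose and 11 fell. *Meig1*, needed for building the sperm tail, had 1079 and 1083 RPKM in PS and 1423 and 985 in RS and was not called. The falls included dyneins such as *Dnah7b* (3.33-fold, from 37.6 and 27.8 RPKM) and *Rsph1* and *Dnah8* above, and the rises included tektins *Tekt2*, *Tekt3*, *Tekt4* and *Tekt5* and the small gene *Efcab1* (8.33-fold). Of 24 manchette, intraflagellar transport and nuclear shaping genes 4 rose and 10 fell. *Ift80* fell 6.34-fold, *Ift140* fell 1.87-fold, *Ift172* was not called, and *Sun5*, which anchors the sperm head to the tail, rose 7.07-fold. Of 21 CatSper and motility genes 7 rose and 4 fell: the channel subunits *Catsper1*, *Catsper3* and *Catsper4* rose 7.37-fold, 7.19-fold and 6.997-fold. Auxiliary subunits *Catsperd* and *Catsperg2* fell, and *Tex40* and the calcineurin subunit *Ppp3r2* were not called. The 4 lower calls of this list became 1 without PS replicate 2, without RS replicate 1 or without RS replicate 2. *Prkar2a*, the regulatory subunit of protein kinase A, rose most in this list, from 2.17 and 3.14 RPKM to 47.4 and 54.1 (19.6-fold), and the calcium pump *Atp2b4* fell 2.81-fold.

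Meiotic genes fell in part. Of 19 tested genes of the piRNA pathway and germ granule 11 fell and 1 rose (median -1.04). *Tdrd5*, *Pld6* and *Tdrd1*, which act in piRNA biogenesis, fell 17.6-fold, 13.1-fold and 12.8-fold, next to *Piwil1*. *Mael* stood at 847 and 776 RPKM in PS and 823 and 692 in RS and *Ddx25* at 444 and 450 in PS and 369 and 326 in RS, neither called, and *Gtsf1* rose 1.76-fold. Of 27 recombination genes 11 fell and 5 rose (median -0.32). *Mlh3*, a crossover protein, fell 5.68-fold, *Spo11*, which makes the double-strand breaks, fell 2.43-fold and *Psmc3ip* 1.65-fold (not called without RS replicate 2). *Tex15* rose 5.53-fold, from 3.97 and 4.22 RPKM to 18.4 and 25.7. Of 14 synaptonemal complex and axis genes 4 fell and 3 rose. *Tex12* fell 2.69-fold, *Syce1* and *Stag3* were not called, and *Rec8*, the meiotic cohesin, rose 6.39-fold from 7.13 and 10.1 RPKM to 52.2 and 54.9. The list of division and pachytene regulators was also mixed, with 12 falls and 5 rises among 25. *Cks2* fell 12.8-fold, *Cdk2* 8.33-fold and the chaperone *Hspa2* 1.60-fold (not called without RS replicate 2), *Ccnb2* was not called and *Cdc25c* rose 4.99-fold. By list, the CRE-like letters stood before 13 of 35 acrosome genes, 2 of 6 serine kinases, 4 of 12 spermatid chromatin genes, 2 of 25 meiotic division genes, 1 of 37 axoneme genes and 0 of 19 piRNA genes, against 5.78% of all genes tested. They also stood before 4 of 15 CREM pathway genes, 3 of 17 outer dense fiber genes and 3 of 25 sperm energy genes. In other lists they stood before 2 of 13 immediate early and heat shock genes and 1 of 21 CatSper genes. Lists that mostly fell or were not called had them too, with 3 of 24 manchette, 5 of 75 oxidative phosphorylation and 5 of 79 ribosomal protein genes. The counts were 1 of 14 synaptonemal complex, 1 of 27 recombination, 1 of 23 translational control and 1 of 42 proteasome genes. They were 1 of 21 cholesterol and 2 of 48 splicing genes. Of the cell markers, 1 of 16 peritubular, vascular and blood, 0 of 17 spermatogonial, 0 of 10 Sertoli and 0 of 9 Leydig genes had them. Within 250 bases they stood before 2 of 19 piRNA genes, against 9.88% of all tested.

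Of 48 splicing factor and hnRNP genes 37 fell and 0 rose (median -1.07), with 1 higher without RS replicate 2. *Hnrnpl* went from 106 and 121 RPKM to 20.7 and 22.5, *Hnrnpk* from 223 and 192 to 94.3 and 96.3, and *Hnrnpu* had 240 and 231 in PS and 154 and 169 in RS without being called. Of 75 subunits of oxidative phosphorylation 37 fell and 0 rose (median -0.63; 1 was higher without PS replicate 1 or RS replicate 2), among them *Uqcrc2* (3.30-fold) and *Cox4i1* (2.47-fold). Of 79 cytoplasmic ribosomal protein genes 20 fell and 0 rose (median -0.41), and 12 fell without RS replicate 2. *Rps27a* fell 3.53-fold, *Rps20* and *Rpl32* were not called, and the share called lower was below that of all autosomal genes. Of 42 proteasome genes 14 fell and 3 rose (median -0.54). *Psma8*, the meiotic core subunit, fell 7.21-fold, *Psma6* rose 3.69-fold and *Psmc3* was not called.

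Of 23 genes of germ cell translational control 7 rose and 6 fell, with *Paip2*, an inhibitor of poly(A)-binding protein, up 3.39-fold and the helicase *Ddx6* down 3.25-fold. Of 21 cholesterol synthesis genes 5 rose and 6 fell. The rises were *Fdft1*, *Sqle*, *Fdps*, *Cyp51* and the regulator *Srebf2*, with *Cyp51* up 3.17-fold, and *Tm7sf2* fell 3.16-fold (not called without RS replicate 1). The 6 lower calls became 3 without PS replicate 1, 1 without RS replicate 1 and 2 without RS replicate 2, and the 5 higher calls became 3 without PS replicate 2. Of 13 immediate early and heat shock genes, which respond to cell handling, 3 rose and 0 fell. *Fos* had 32.7 and 26.1 RPKM in PS and 30.9 and 38.7 in RS and *Dnajb1* 180 and 195 in PS and 196 and 186 in RS, neither called, and *Hspa1a* rose 5.31-fold at below 1 RPKM.

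Gene names gave a second view. Symbols were grouped by the letters before the first digit, and 80 groups had 20 or more tested autosomal genes. Those named here were picked after their counts were seen. Over all autosomal genes tested 29.3% were higher and 28.5% lower in RS. Of 25 *Spata* (spermatogenesis associated) genes 18 were higher and 1 was lower, and of 303 testis cDNA clones named 1700...Rik 199 were higher and 36 lower. Of 29 *Adam* metalloproteases 16 were higher and 3 lower, and of 49 genes in the *Cd* group 32 were higher and 5 lower. The summed reads of the *Cd* group changed little, from 7534 and 6406 in PS to 9055 and 7729 in RS. How many of the *Cd* rises belong to germ cells was not tested. General transcription and mitochondrial translation stood at the other end. Of 23 *Gtf* (general transcription factor) genes 15 were lower and 1 was higher, of 28 *Polr* (RNA polymerase) genes 15 were lower and 1 higher, and of 47 *Mrpl* (mitochondrial ribosome) genes 27 were lower and 2 higher. Of 288 *Zfp* zinc finger genes 118 were lower and 56 higher. The 36 collagen (*Col*) genes also leaned to RS, 25 higher and 2 lower. *Col22a1* was the most read of them, with 219 and 476 reads in PS and 3437 and 3123 in RS, whereas the fibroblast collagens *Col1a1* and *Col3a1* had 12 and 14 and 31 and 30 reads in PS and 165 and 110 and 285 and 165 in RS. Their rise went together with that of the macrophage markers above, and how much of it belongs to germ cells was not tested.

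Few autosomal genes went from near 0 in PS to 10 CPM or more in RS. Others started as low but stayed rarer. The 191 genes at least 16-fold higher had medians of 0.149 CPM in PS and 3.77 CPM in RS. With near 0 taken as at most 1 CPM in both PS libraries (10 reads at most here) and on as at least 10 CPM in both RS libraries, 9 genes were switched on. *Gm5901* (chr7:105375098-105378287) had 0 reads in both PS libraries and 326 and 236 in RS, which is at least 167-fold higher against a floor of 3 reads over both PS libraries. *Adamts5*, a matrix protease, had 5 and 3 reads in PS and 229 and 157 in RS (41.9-fold). The complement genes *C1qa*, *C1qb* and *C1qc*, typical of macrophages, had 4 to 8 reads in a PS library and 123 to 179 in an RS library, and the endocytic adaptor *Dab2* had 8 and 4 in PS and 150 and 126 in RS. Of the rest, the kallikrein *Klk1b9* rose 14.9-fold, the noncoding *4930471C04Rik* 15.1-fold and the defensin *Defb33* 18.4-fold. *C1qa* was on the list of blood markers, and that list's levels above rose in the same libraries.

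The 4 protamine and transition protein genes had 476 to 1286 reads in a PS library and so were outside this class. At the edge of the class, 3 of its genes had a PS maximum of 0.8 to 1 CPM, and 9 further genes were left out by a PS maximum of less than 0.25 CPM above the limit. With at least 5 CPM in RS the class had 72 genes, without PS replicate 2 it had 36 and without RS replicate 2 it had 17, each time with the 9 named genes among them. In the other direction *Zfp389*, a noncoding zinc finger gene, was the only gene on in PS and near 0 in RS, with 267 and 193 reads in PS and 10 and 10 in RS (25.2-fold lower), and dropping 1 library gave 2 to 4 genes.

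H3K27ac, a mark of active promoters, was compared at the same starts in wild type cells, a genotype other than that of the RNA. A peak within 500 bases of the start in both replicates was present at 79.2% of tested autosomal genes in PS and at 74.2% in RS. Fallers had one more often, 88.7% in PS and 83.8% in RS, than risers, 64.3% in PS and 63.9% in RS, and the 191 genes at least 16-fold higher had one at 23.6% in PS and 34.03% in RS. Peaks in RS and not in PS stood at 5.96% of risers, 0.371% of fallers and 2.27% of all tested genes. Peaks in PS and not in RS stood at 6.32% of risers, 5.27% of fallers and 7.27% of all tested genes. In RS replicates 1 and 2 the deposited fold enrichment over background at *Tnp1* was 22.0 and 19.7, against 9.47 and 7.67 in PS. *Gm5901* had no peak in PS and enrichment of 10.2 and 6.97 in RS, while *Zfp389* had 42.4 and 47.1 in PS and 6.51 and 5.23 in RS. *Adamts5*, the 3 complement genes, *Dab2*, *Klk1b9* and *Defb33* had no peak in any of the 4 lists. RS replicate 2 had fewer genes with a peak (74.4%) than RS replicate 1 (82.9%), so shares in RS rest on the sparser list.

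Noncoding and long genes leaned toward RS. Of 841 tested genes with only a noncoding RefSeq accession 43.2% were higher and 24.4% lower, against 28.4% and 28.8% of 13328 protein-coding genes. By CPM the highest such RNA in RS that rose was *BB014433*, with 28.7 and 40.1 CPM in PS and 319 and 312 in RS. *1700027A15Rik* had 164.5 and 177.8 CPM in RS, with 10.8 and 19.3 RPKM in PS and 339 and 372 RPKM in RS. Split by genomic span into 5 classes of equal size, the longest class (64978 bases or more) had 36.7% higher and 20.04% lower, and the other classes had 25.4% to 29.6% higher. Chromosomes differed little, from 26.0% higher on chromosome 8 to 35.2% on chromosome 14.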

How the data were processed

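RNA of 2 PS and 2 RS libraries of dKO mice and H3K27ac of 4 wild type libraries were used. Per the study's methods, the authors amplified RNA with a kit not stated to keep strand, aligned reads uniquely to mm10 and split them among RefSeq isoforms by expectation maximization. The deposited estimated counts were whole numbers, and the deposited RPKM were the authors' values, both summed here over isoforms. The submitters' processing notes name STAR 2.4.2a, Bowtie 1.1.1 and MACS2 2.1.0.20140616. The deposited peak lists hold pileup, fold enrichment and −log10 p and q values, of which the fold enrichment was printed.

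edgeR 4.0.16 (TMM, quasi-likelihood, R 4.3.3) was fitted to all 14649 genes with 10 or more reads in 2 or more libraries, with Benjamini-Hochberg adjustment over all of them. A call needed an adjusted p below 0.05 and a 1.5-fold difference. Tested on simulated data for RS against PS over 14290 genes, it recovered 100 of 100 genes changed 4-fold and 70 of 100 changed 2-fold, with 3.95% of calls false. Only 200 genes were changed there and all genes had the same dispersion, whereas 57.8% of autosomal genes were called in the data. The share of false calls in the data was thus not measured. DESeq2 1.42.0 and the other alternatives are given in the closing section. Upstream bases were read from GRCm38, which is the build of the files, with samtools 1.23.1.

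Members and lists were chosen with earlier results of these data known. The names given follow a rule: the 10 highest genes of each stage by CPM and by RPKM, the 10 largest rises and falls among called genes of at least 10 CPM, the switched genes, the deleted genes, and per list the 2 highest members and the called members with the largest rise and fall. A gene that this rule names is not reported here. Other genes in the text were chosen after their values were seen, as were the CRE-like letters and the symbol groups. The list of respiratory chain genes was corrected once the files were seen. Reads that match near-identical copies equally well were left out by unique alignment, and overlapping genes can share reads.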

Additional observations from a re-analysis of the deposited data

How the results depend on the processing

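No call among the 4147 genes higher and 4041 lower in RS changed direction under any alternative run, and the totals stayed within 1.5 times under other scalings, DESeq2 (3571 and 3629), no filter, 100 reads, an autosomal fit and leaving out 1 library (2951 to 4323 and 2907 to 3977). With a 2-fold threshold 2637 genes were lower. The genes switched on numbered 1 with at most 3 reads in PS, 72 with at least 5 CPM in RS and 9 to 36 without 1 library. Those nearly absent in RS numbered 0, 5 and 2 to 4 under the same changes. A replicate block gave 4265 higher and 4123 lower genes, and same-numbered libraries correlated at 0.226 in their deviations. The sources do not say that a number marks a mouse. Of 1454 values for 124 named genes 26 lost their call, 18 gained one and 0 reversed. Of 576 list counts 62 moved by over 1.5 times, and the median changed sign in 5 lists (axoneme, CatSper, translational control, cholesterol and Sertoli). The cause was not tested. Where 1 library was left in a stage, it was assumed to vary like those of the other stage. Genes under 10 reads were beyond this depth, and a count of 0 in a library allows up to 3 reads.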
